A study of Mus musculus with 54 samples.

Results

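The genes described here are the targets of the transcription factor NRF2 and the enzymes of glutathione synthesis, glutathione conjugation, NADPH supply and the pentose phosphate pathway, chosen by symbol from a list of 37 genes written by function. Of these, 36 were found among the 19068 genes of the expression table, and Cbr3 was not analysed here. A filter on low values (a mean of at least 1 TPM over all libraries, TPM being a level scaled to gene length and library) was passed by 35 of the 36. Slc7a11, the cystine carrier, did not pass and was without a value in 22 of 52 libraries.

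RNA came from late proximal tubules of the mouse kidney, the S3 segment, cut out by laser as tubules that bound the lectin LTL and lacked SGLT2, at 70 to 80 tubules per sample. All animals were male DBA mice of 14 weeks. Diabetic mice carried 1 mutant copy of the insulin gene Ins2 (Ins2 Akita/+), a model of type 1 diabetes, and nondiabetic littermates were Ins2+/+. Both kinds were either homozygous knockouts of Sglt1 (Sglt1-/-, called KO), which lack the glucose carrier of S3, or Sglt1+/+ (called WT). Treatment lasted 2 weeks. The 9 groups were Akita WT mice on semaglutide (a GLP-1 receptor agonist injected under the skin at 3 nmol per kg body weight per day), Akita WT, Akita KO, nondiabetic WT and nondiabetic KO mice on dapagliflozin (an SGLT2 inhibitor at 10 mg per kg of diet), and the same 4 kinds on vehicle. The labels list 54 samples, 52 of which had expression values: 5 each for Akita WT mice on semaglutide and on dapagliflozin, and 6 in each other group. Nothing in the labels ties a sample to an animal of its own, so p-values measure the spread between samples, which may be technical.

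NRF2, the product of Nfe2l2, is held low by KEAP1, which marks it for degradation until oxidants or electrophiles modify KEAP1. Free NRF2 enters the nucleus, pairs with small MAF proteins and binds the antioxidant response element in front of genes that make glutathione, reduce peroxides and quinones, handle heme and iron, supply NADPH and conjugate or export reactive compounds. The proximal tubule is rich in glutathione and in glutathione transferases, which it uses to handle filtered and secreted toxicants.

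Slc5a1, the gene of SGLT1, checked the genotype labels: it stayed at or below 1.34 TPM in all 24 KO libraries and reached at least 27.3 TPM in all 28 WT libraries. Slc5a2, the gene of SGLT2, ran from 3.93 to 205 TPM, so this marker of the S1 and S2 segments was present in every library. All 7 S3 markers checked had a value in every library, with a median of 868 TPM for Slc7a13. They include Slc5a1, whose value of at most 1.34 TPM in the KO libraries says nothing about the segment there. TPM summed to between 984393 and 2253870 per library instead of a common total, and genes of the mitochondrial genome took 21.4 to 54.3% of it. Read depth is unknown. In such bulk samples fewer cells of a type and less RNA per cell cannot be told apart.

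The antioxidant response element was searched as TGACNNNGC on both strands of the window from 250 bases before to 50 bases after each RefSeq start (build GRCm38.p6). The AP-1 motif TGACTCA can lie within these letters. They were found in 12.4% of all 32851 promoters of the table, and in 12 of the 42 promoters (28.6%) of the 31 genes matched. Hmox1, Gclc, Gsr, Gsta4 and Gstt2 were not matched. The 11 genes with a match were Gsta3, Gstm5, Nfe2l2, Srxn1, Gclm, Prdx1, Pgd, Me1, Txnrd1, Abcc4 and G6pdx. The first 4 sequences below are shown because they precede the 4 genes that passed the test for diabetes: each gives the 250 bases before the RefSeq start, read along the gene. The last 3 are 29-base windows around a match before a RefSeq start of Gclm, Prdx1 and Txnrd1, read so that the match is forward. Capitals mark the matches.
Ephx1 (chr1:181017570-181017819, minus strand): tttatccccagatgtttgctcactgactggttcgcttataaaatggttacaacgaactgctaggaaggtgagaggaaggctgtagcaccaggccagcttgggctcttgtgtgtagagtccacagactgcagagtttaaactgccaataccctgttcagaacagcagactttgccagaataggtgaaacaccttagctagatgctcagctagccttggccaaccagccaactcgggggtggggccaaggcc
Gsta3 (chr1:21240335-21240584, plus strand): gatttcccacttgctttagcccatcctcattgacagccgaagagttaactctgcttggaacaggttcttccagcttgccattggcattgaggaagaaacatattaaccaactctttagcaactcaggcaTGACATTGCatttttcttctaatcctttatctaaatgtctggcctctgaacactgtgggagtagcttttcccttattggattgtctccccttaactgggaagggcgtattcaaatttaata
Gstm5 (chr3:107895604-107895853, plus strand): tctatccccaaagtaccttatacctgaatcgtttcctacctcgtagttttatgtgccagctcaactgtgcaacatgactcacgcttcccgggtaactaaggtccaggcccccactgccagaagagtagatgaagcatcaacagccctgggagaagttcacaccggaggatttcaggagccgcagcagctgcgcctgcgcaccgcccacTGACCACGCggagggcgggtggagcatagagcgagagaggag
Tkt (chr14:30548881-30549130, plus strand): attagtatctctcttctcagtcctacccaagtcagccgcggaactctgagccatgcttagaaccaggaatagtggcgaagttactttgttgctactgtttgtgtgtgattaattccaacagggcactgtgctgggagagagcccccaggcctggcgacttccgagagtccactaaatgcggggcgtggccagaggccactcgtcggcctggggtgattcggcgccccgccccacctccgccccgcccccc
Gclm (chr3:122245413-122245441, minus strand): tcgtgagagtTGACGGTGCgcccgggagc
Prdx1 (chr4:116685456-116685484, minus strand): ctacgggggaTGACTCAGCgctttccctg
Txnrd1 (chr10:82859104-82859132, minus strand): cgtgtcagaaTGACAAAGCaaaaatccag

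The match lay 121 bases before the start of Gsta3 and 42 bases before that of Gstm5. The windows of Ephx1 and Tkt held no such letters. Both lie inside the GENCODE spans of these genes given below, so the bases before the outermost GENCODE starts of this pair were not searched. The Txnrd1 match shown also lies inside the GENCODE span of its gene (chromosome 10, 82833951 to 82897712, plus strand), not before its outermost start. A match describes the letters and is not evidence of binding.

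Levels per length differed widely between these genes. Fth1, the heavy chain of the iron store ferritin, averaged 3898 ± 1180 TPM in the 23 Akita libraries on vehicle or dapagliflozin and 3008 ± 948 TPM in the 24 nondiabetic libraries (SD). Gpx3, the secreted glutathione peroxidase, averaged 2842 ± 1119 TPM in Akita and 2116 ± 737 TPM in nondiabetic libraries. Gss, which joins glycine to make glutathione, averaged 883 ± 124 TPM in Akita and 743 ± 177 TPM in nondiabetic libraries. At the low end stood Gsta4, a transferase for lipid aldehydes, with 6.22 ± 2.84 TPM in Akita and 6.62 ± 5.0 TPM in nondiabetic libraries.

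Most transcripts of the 10 glutathione transferase genes came from a pair of them. Gstm1 made up a median of 49.2% of their summed TPM over the 52 libraries (range 30.8 to 59.2%), and Gstt2 made up 33.4% (range 22.6 to 44.4%). Gstp1 held a median of 6.96% and Gstm5 of 5.30%. Some of these levels are uncertain because exonic sequence is shared. Of the 50-base stretches in each gene's transcripts, 49.8% in Gsta2 were also in another gene (36.0% in Gsta1), 33.7% in Gstp1 (shared with Gstp2) and 18.9% in Gstm1. The shares were 50.9% for the ferritin light chain gene Ftl1 and 34.7% for the lipid peroxide reductase gene Gpx4, largely with pseudogenes. For the genes that passed a test the shares were 1.7% in Ephx1, 0.27% in Gsta3 and 0 in Gstm5 and Tkt.

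**Figure D1:**
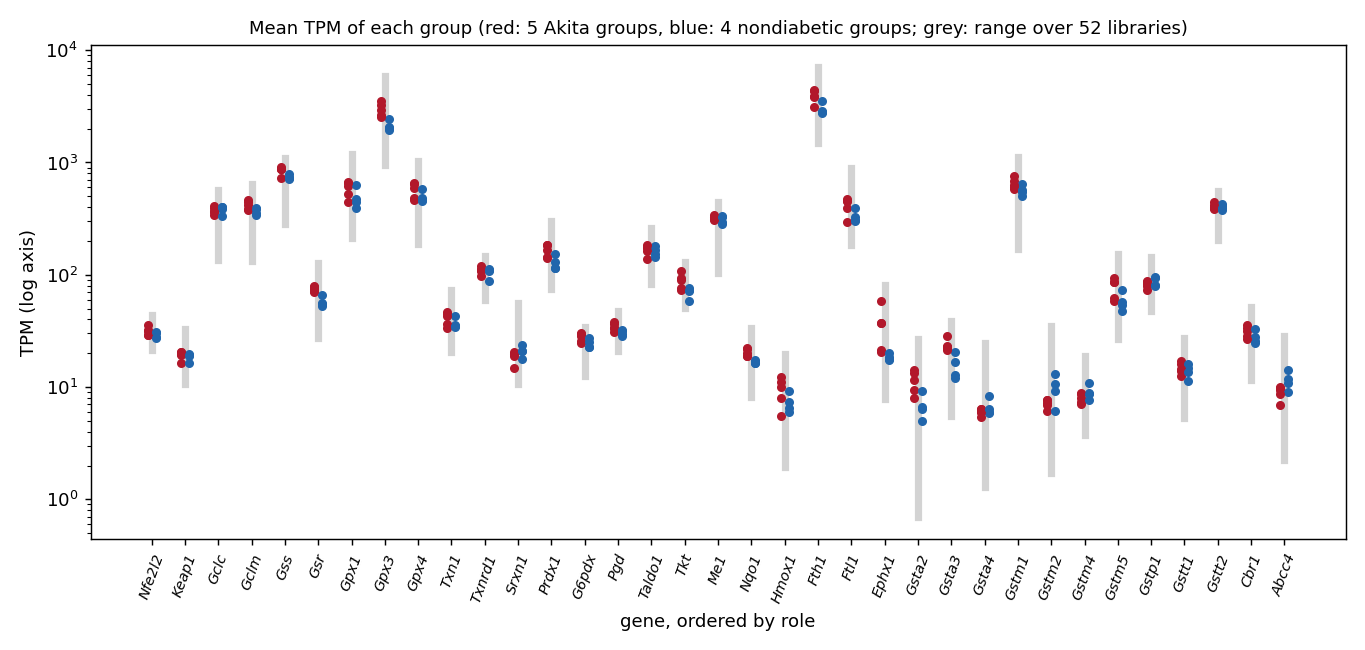
Mean TPM of each group (red for the 5 Akita groups, left, and blue for the 4 nondiabetic groups, right) for the 35 genes that passed the filter, on a log axis, with the range over 52 libraries in grey. Fth1 and Gpx3 stand highest, and the red Ephx1 points spread from 20.5 TPM in Akita KO dapagliflozin libraries to 58.1 TPM in Akita WT vehicle libraries, while the blue ones lie between 17.3 and 20.2 TPM.

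Diabetes in WT mice on vehicle raised 2 of the 35 genes, Ephx1 and Gsta3, while 0.389% of the 15424 genes tested passed, 0.337% as higher (limma, Benjamini-Hochberg adjusted p under 0.05). At an unadjusted p under 0.05 there were 12 of the 35, against 10.2% of all genes. In 4 of the 35 every Akita library lay above every nondiabetic one, against 0.571% of all genes: Ephx1, Gsta3, Tkt and Txnrd1. The median log2 difference of the 35 was 0.41 with 28 above 0, and that of all genes was 0.05 with 56.4% above 0. After rescaling each library to the same sum without mitochondrial genes, the median was 0.18 for the 35, with 23 above 0, and -0.17 for all genes. With the summed TPM of each library as a covariate in the fit, the median was 0.08 for the 35, with 25 above 0, and 0.03 for all genes.

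Ephx1 encodes microsomal epoxide hydrolase, which opens reactive epoxides with water (ENSMUSG00000038776, chromosome 1, 180976210 to 181020904, minus strand, GRCm38). Its 6 Akita WT vehicle libraries ran from 41.0 TPM, with a median of 59.4, to 72.8 TPM, and the 6 nondiabetic WT vehicle libraries from 9.42 TPM, with a median of 15.1, to 33.0 TPM. The groups did not overlap. The mean was 58.1 ± 12.1 TPM in Akita and 17.9 ± 8.51 TPM in nondiabetic libraries (SD, n = 6 each), a 3.31-fold difference on the scale of log2(TPM + 1), which understates changes of low genes (log2 1.73, SE 0.33, limma adjusted p = 0.00305). The call held whichever of the 12 libraries was left out, with a limma adjusted p of up to 0.0188. After rescaling without mitochondrial genes the log2 difference was 1.49 and the limma adjusted p 0.0559.

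Gsta3 encodes an alpha-class glutathione transferase (ENSMUSG00000025934, chromosome 1, 21240589 to 21265661, plus strand, with Gm28836 on the opposite strand). Its Akita libraries ran from 21.4 TPM, with a median of 27.9, to 38.8 TPM, and the nondiabetic ones from 5.55 TPM, with a median of 11.8, to 21.3 TPM. All Akita values were higher, by a narrow margin between the nearest pair. The log2 difference was 1.19 (SE 0.28, limma adjusted p = 0.0325, and 0.146 after rescaling without mitochondrial genes). The call ended on leaving out any of 8 of the 12 libraries, with the highest adjusted p, 0.118, without Akita WT vehicle replicate 5.

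Tkt, the transketolase of the pentose phosphate pathway (ENSMUSG00000021957, chromosome 14, 30548359 to 30574720, plus strand), and Txnrd1, the cytosolic thioredoxin reductase, did not pass, although their groups did not overlap. Tkt ran from 95.4 TPM, with a median of 106, to 130 TPM in Akita and from 53.9 TPM, with a median of 72.8, to 91.5 TPM in nondiabetic libraries (log2 0.58, SE 0.16, limma adjusted p = 0.0871). Txnrd1 ran from 113 TPM, with a median of 119, to 129 TPM in Akita and from 59.9 TPM, with a median of 91.7, to 109 TPM in nondiabetic libraries (log2 0.48, SE 0.14, limma adjusted p = 0.112). Hmox1, the heme oxygenase, averaged 12.2 ± 2.87 TPM in Akita and 7.30 ± 4.80 TPM in nondiabetic libraries (SD, n = 6 each), and the groups overlapped (log2 0.88, SE 0.32, limma adjusted p = 0.280).

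Other measures moved with the same groups. TPM summed to 1857900 ± 250660 in Akita WT vehicle and 1422200 ± 323330 in nondiabetic WT vehicle libraries, with 42.2 ± 5.71% and 35.4 ± 7.07% of it from the mitochondrial genome (SD, n = 6 each). Markers of several other cell types had log2 differences below 0, with 0 passing in limma. These were 9 of 10 for macrophage and dendritic cells (median log2 -0.46), 7 of 8 for endothelium (-0.31), 6 of 7 for stroma (-0.32), 3 of 3 for the thick limb (-0.28) and 3 of 3 for podocytes (-0.41). Above 0 were 6 of 7 S3 markers (0.18) and 4 of 6 markers of the whole proximal tubule (0.07). So were 3 of 6 collecting duct (0.02), 2 of 6 S1 and S2 (-0.05) and 1 of 3 distal tubule markers (-0.03), again with 0 passing in limma. The summed level of the 10 macrophage and dendritic markers ran from 322 to 426 TPM in Akita and from 385 to 655 TPM in nondiabetic libraries. That sum is mostly Csf1r and Cd74, with medians of 320 and 72.9 TPM over the 52 libraries, against 1.67 to 12.5 TPM for the other 8. Summed endothelial markers ran from 199.5 to 319 TPM in Akita and from 222 to 402 TPM in nondiabetic libraries. Of the macrophage and dendritic markers, Cd68, C1qa and C1qb were at 0 in 3, 2 and 1 of the 52 libraries. With a score of other cell types in the fit Ephx1 still passed, and Gsta3 had a limma adjusted p of 0.0716. With summed TPM in the fit Ephx1 again passed, and Gsta3 had a limma adjusted p of 0.161.

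**Figure D2:**
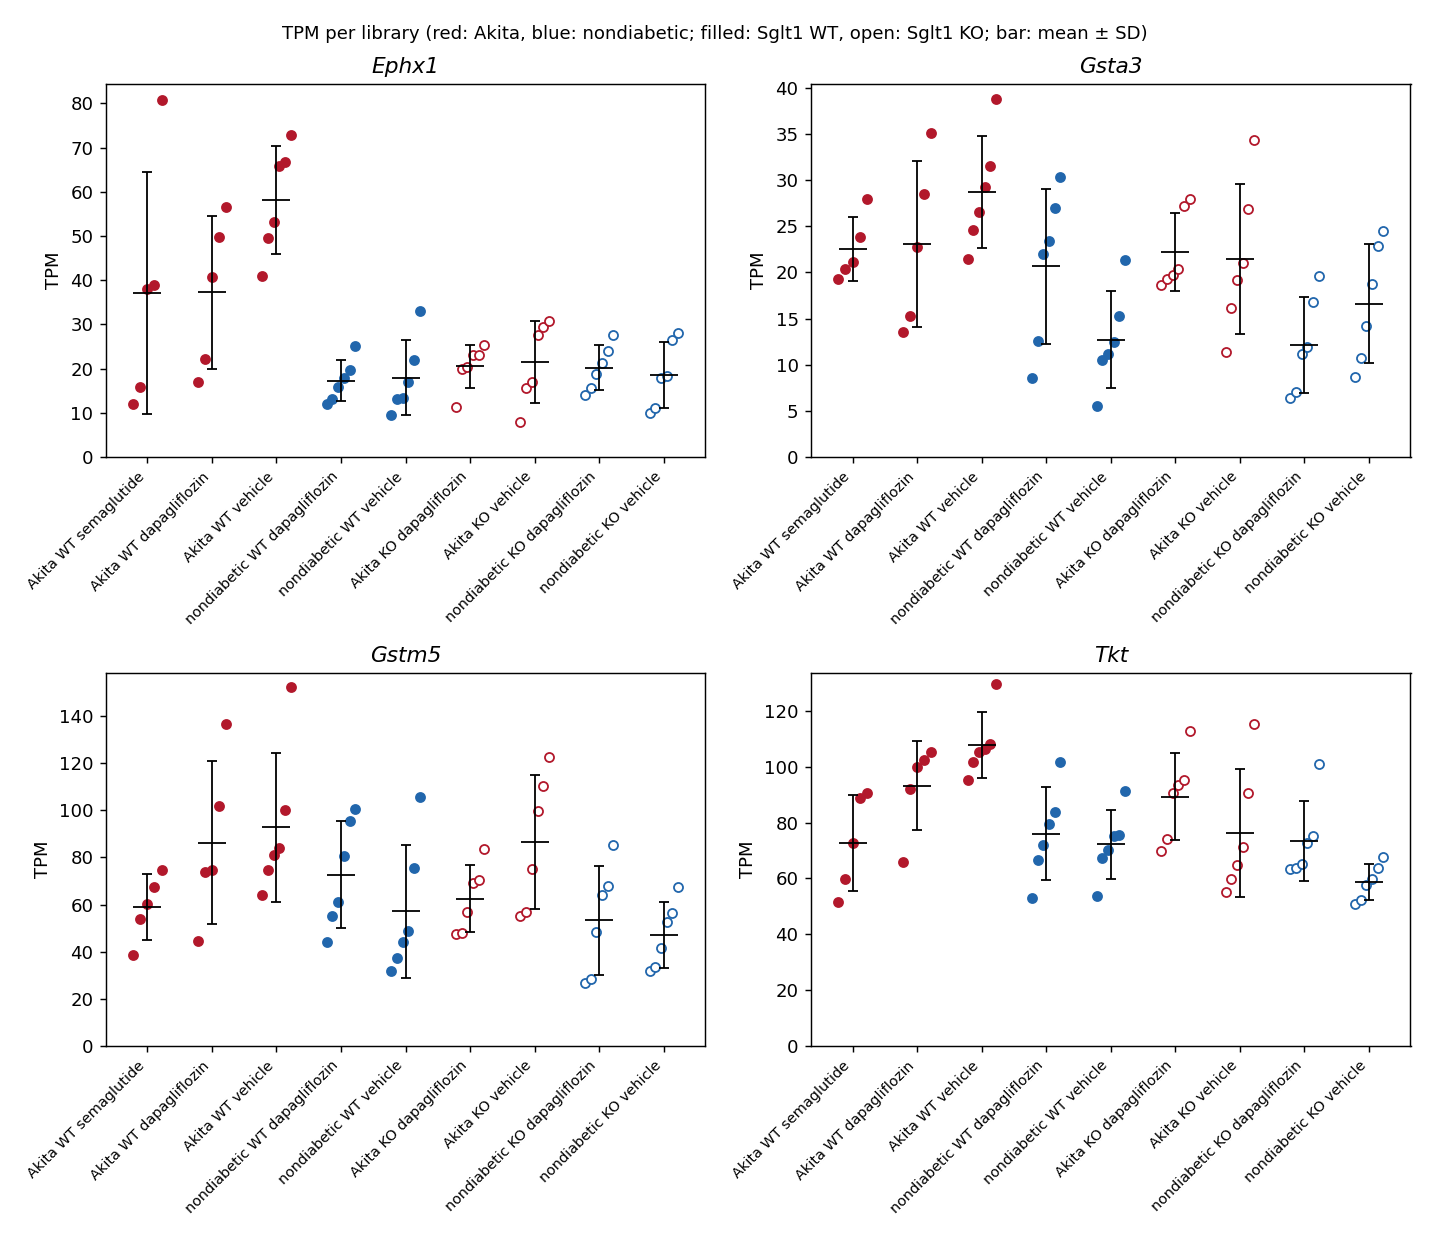
TPM of Ephx1, Gsta3, Gstm5 and Tkt in each library (points), with the mean and SD of each group (bars), Akita in red, nondiabetic in blue, WT filled and KO open. The Akita WT vehicle libraries of Ephx1 lie between 41.0 and 72.8 TPM, above all nondiabetic libraries, and the KO groups of Ephx1 overlap the nondiabetic WT groups.

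Diabetes averaged over both genotypes, on vehicle or dapagliflozin, raised 4 of the 35 genes, Ephx1, Gsta3, Gstm5 and Tkt, and lowered 0 (23 Akita against 24 nondiabetic libraries). Of all genes 0.966% passed, and 0.784% passed as higher. At an unadjusted p under 0.05 there were 17 of the 35, against 13.4% of all genes. The median log2 difference was 0.23 with 31 of 35 above 0, and 0.03 over all genes. After rescaling without mitochondrial genes it was 0.18 with 27 above 0, and -0.02 over all genes. With summed TPM in the fit the median was 0.16 with 28 above 0, and 0.02 over all genes. This average includes the WT vehicle libraries described above.

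Gsta3 averaged 23.9 ± 7.14 TPM in Akita and 15.5 ± 6.99 TPM in nondiabetic libraries, and 22 of 23 Akita libraries lay above the nondiabetic median (log2 0.66, SE 0.14, limma adjusted p = 0.00848). Tkt averaged 91.6 ± 19.8 TPM in Akita and 70.1 ± 13.9 TPM in nondiabetic libraries, with 19 of 23 above (log2 0.37, SE 0.08, limma adjusted p = 0.00848). Both passed whichever single library was left out. Ephx1 averaged 34.2 ± 19.2 TPM in Akita and 18.5 ± 6.30 TPM in nondiabetic libraries, with 18 of 23 above (log2 0.72, SE 0.17, limma adjusted p = 0.0203, and 0.0930 after rescaling without mitochondrial genes). Without that rescaling Ephx1 also passed whichever single library was left out, with a limma adjusted p of up to 0.0425.

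Gstm5, a mu-class glutathione transferase (ENSMUSG00000004032, chromosome 3, 107895821 to 107898686, plus strand, overlapped by 4933431E20Rik on the other strand), averaged 81.9 ± 28.6 TPM in Akita and 57.6 ± 23.3 TPM in nondiabetic libraries. Of 23 Akita libraries 20 lay above the nondiabetic median (log2 0.53, SE 0.14, limma adjusted p = 0.0487). The call ended without any of 32 of the 47 libraries, highest at 0.0989 without Akita WT dapagliflozin replicate 3. With the score of other cell types in the fit the log2 difference of Gstm5 was 0.36 (limma adjusted p = 0.362), with percent mitochondrial TPM the adjusted p was 0.0843 and with summed TPM 0.0813. In the same average 8 of 10 macrophage and dendritic, 8 of 8 endothelial, 6 of 7 stromal, 6 of 6 collecting duct, 3 of 3 thick limb and 3 of 3 podocyte markers had averaged differences below 0, with 0 passing in limma. Above 0 were 6 of 7 S3, 5 of 6 S1 and S2, 5 of 6 whole proximal tubule and 1 of 3 distal tubule markers, also with 0 passing.

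The single comparisons behind this average gave a range of values. Ephx1 differed by log2 1.73 in WT vehicle, 0.16 (interval -0.51 to 0.82) in KO vehicle, 0.96 in WT dapagliflozin and 0.02 (interval -0.65 to 0.68) in KO dapagliflozin libraries, with 95% intervals. Gsta3 differed by log2 1.19, 0.36, 0.18 and 0.90 in the same order, Gstm5 by 0.76, 0.85, 0.21 and 0.32, and Tkt by 0.58, 0.33, 0.30 and 0.28. In KO vehicle, WT dapagliflozin and KO dapagliflozin libraries 0 of the 35 genes passed in limma, against 0%, 0.00648% and 0% of all genes, and 5, 1 and 2 had an unadjusted p under 0.05, against 6.65%, 3.46% and 5.12% of all genes. Differences in the diabetes effect passed for 0 of the 35 genes in limma, against 0% of all genes by genotype on vehicle, 0% by dapagliflozin in WT and 0.00648% by dapagliflozin averaged. At an unadjusted p under 0.05 there were 3, 2 and 0 of the 35, against 4.01%, 4.42% and 4.51% of all genes. The difference was log2 -1.57 for Ephx1 between KO and WT on vehicle (SE 0.47, limma adjusted p = 0.999), and log2 -1.004 for Gsta3 between dapagliflozin and vehicle in WT (SE 0.41, limma adjusted p = 0.999). For the latter contrast the median of the 35 was log2 -0.17 with 5 above 0, against -0.03 for all genes. Its sign depended on scaling. After rescaling without mitochondrial genes it was 0.24 with 29 above 0, against 0.37 for all genes. With summed TPM in the fit it was 0.16 with 28 above 0, against -0.01. The rescaled diabetes median was 0.18 in WT vehicle and 0.35 in WT dapagliflozin libraries, against -0.17 and 0.20 for all genes.

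**Figure D3:**
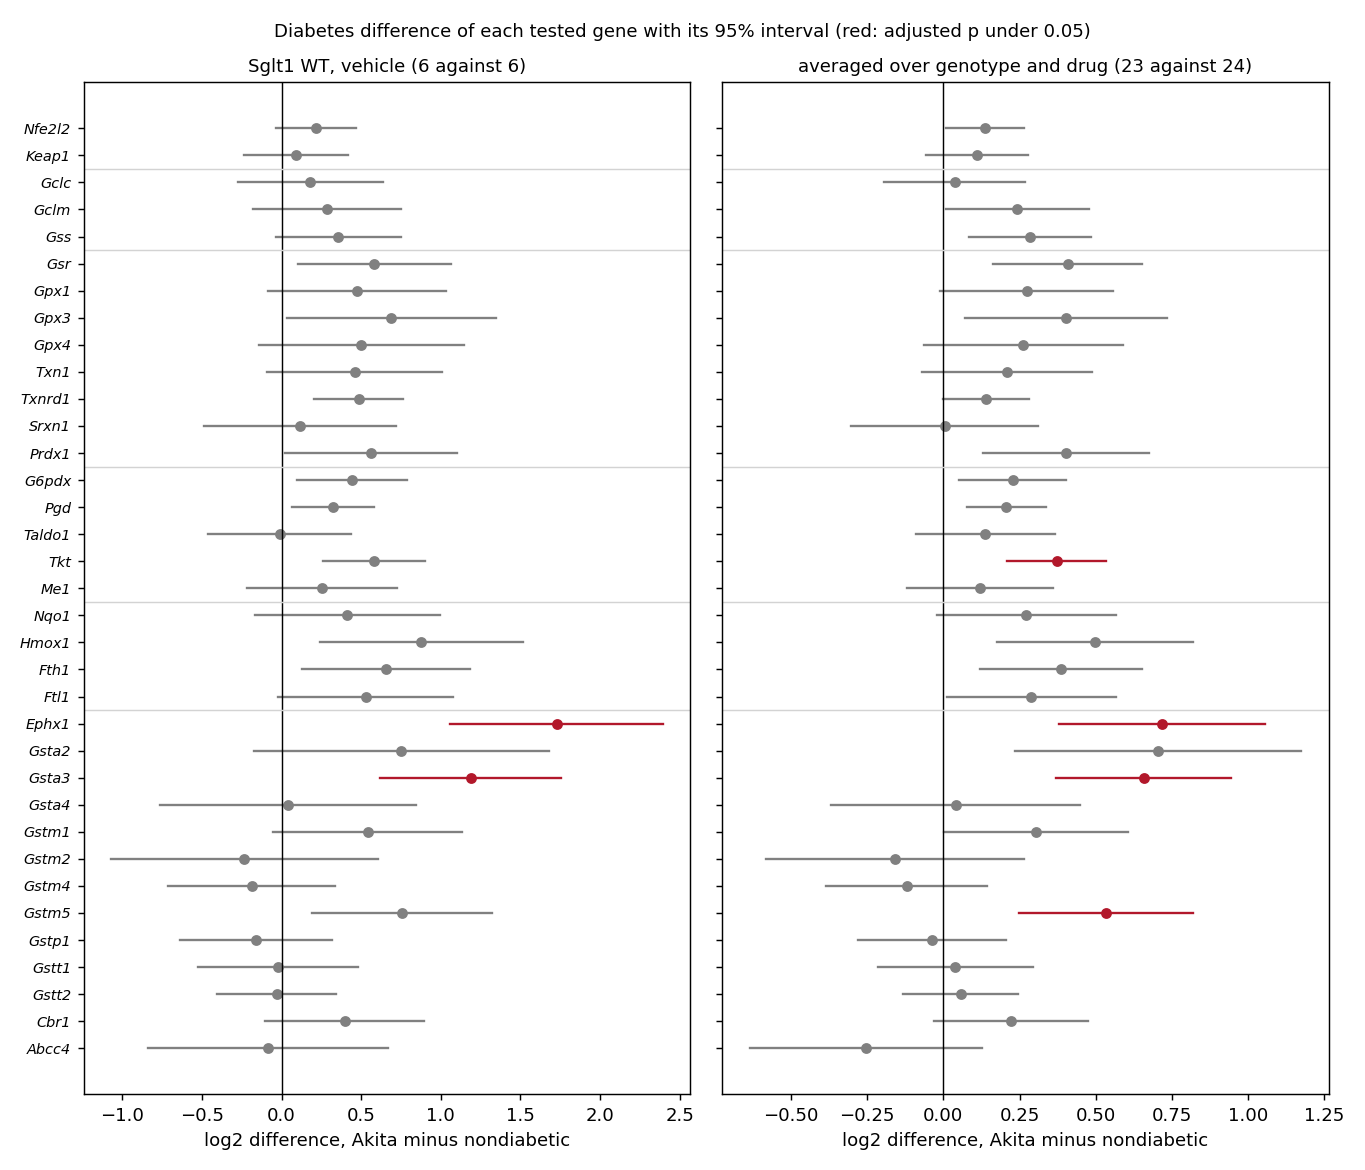
Log2 difference, Akita minus nondiabetic, of each of the 35 genes with its 95% interval, for WT vehicle libraries (left) and averaged over genotype and drug (right), with genes that passed in red. Ephx1 and Gsta3 are red on the left, and Tkt, Ephx1, Gsta3 and Gstm5 on the right, while most other intervals include 0.

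By role, the regulators showed small values. Nfe2l2 averaged 35.4 ± 6.71 TPM in Akita WT vehicle and 30.0 ± 3.36 TPM in nondiabetic WT vehicle libraries (SD, n = 6 each), and its averaged diabetes difference was log2 0.14 (interval 0.01 to 0.26, limma adjusted p = 0.336). Keap1 stood at log2 0.11 (interval -0.06 to 0.28).

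Among the 3 tested genes of glutathione synthesis 0 passed in limma for averaged diabetes. Gclc, the catalytic subunit of the rate-limiting enzyme, averaged 380 ± 87.5 TPM in Akita and 379 ± 104 TPM in nondiabetic libraries, with a difference of log2 0.04 (interval -0.19 to 0.27). Its modifier subunit Gclm stood at log2 0.24 (interval 0.01 to 0.48) and Gss at log2 0.28 (limma adjusted p = 0.177). Slc7a11, which imports cystine for this pathway, was too low to test. Its level reached 3.26 TPM in Akita KO vehicle replicate 6 and at most 0.338 TPM in the other 22 Akita libraries on vehicle or dapagliflozin, and at most 0.587 TPM in the 24 nondiabetic libraries.

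The 8 genes of peroxide and disulfide reduction had averaged log2 differences of 0.00 to 0.41 in the TPM as deposited, and 0 passed in limma. Gsr, which regenerates reduced glutathione with NADPH, averaged 75.1 ± 19.1 TPM in Akita and 57.4 ± 18.8 TPM in nondiabetic libraries, with 19 of 23 Akita libraries above the nondiabetic median (log2 0.41, SE 0.12, limma adjusted p = 0.0959). Prdx1, a peroxiredoxin, averaged 170 ± 56.6 TPM in Akita and 128 ± 46.9 TPM in nondiabetic libraries (log2 0.40, SE 0.14, limma adjusted p = 0.156). Gpx1, Gpx3, Gpx4, Txn1 and Txnrd1 stood at log2 0.27, 0.40, 0.26, 0.21 and 0.14. Srxn1, the sulfiredoxin that repairs overoxidised peroxiredoxins, stood at 19.6 ± 5.81 TPM in Akita and 20.9 ± 11.6 TPM in nondiabetic libraries.

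Of the 5 genes of NADPH supply and the pentose phosphate pathway, Tkt rose and the others did not pass. Tkt and Taldo1 belong to the arm of that pathway that makes no NADPH, while the products of G6pdx, Pgd and Me1 make it. G6pdx, the entry enzyme of the pentose phosphate pathway, averaged 28.6 ± 4.49 TPM in Akita and 24.5 ± 5.81 TPM in nondiabetic libraries (log2 0.23, SE 0.09, limma adjusted p = 0.224). Pgd, the next dehydrogenase of its oxidative arm, averaged 35.3 ± 4.63 TPM in Akita and 30.7 ± 4.78 TPM in nondiabetic libraries (log2 0.21, SE 0.06, limma adjusted p = 0.110). Taldo1, the transaldolase, and Me1, malic enzyme, stood at log2 0.14 and 0.12.

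The 4 genes of quinone, heme and iron handling had averaged differences of log2 0.27 to 0.50, and 0 passed in limma. Hmox1 averaged 10.3 ± 3.93 TPM in Akita and 7.28 ± 3.63 TPM in nondiabetic libraries, with 19 of 23 above (log2 0.50, SE 0.16, limma adjusted p = 0.128). Nqo1, the quinone reductase often read as a marker of NRF2 activity, averaged 20.7 ± 7.32 TPM in Akita and 16.8 ± 5.42 TPM in nondiabetic libraries (log2 0.27, interval -0.02 to 0.57). Fth1 stood at log2 0.39 (limma adjusted p = 0.166) and Ftl1 at log2 0.29.

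Of the 13 genes of conjugation, hydrolysis and export 9 had averaged differences above 0 in the TPM as deposited, and 3 passed. The most abundant transferases gave log2 0.30 for Gstm1 (limma adjusted p = 0.365) and log2 0.06 for Gstt2 (interval -0.13 to 0.25). Gsta2, close in sequence to Gsta1, averaged 11.7 ± 6.74 TPM in Akita and 6.8 ± 5.10 TPM in nondiabetic libraries, with 21 of 23 above (log2 0.70, SE 0.23, limma adjusted p = 0.144). Abcc4, an exporter of organic anions, averaged 8.76 ± 3.23 TPM in Akita and 11.5 ± 6.66 TPM in nondiabetic libraries (log2 -0.25, interval -0.64 to 0.13). Gstm2, Gstm4 and Gstp1 stood at log2 -0.16, -0.12 and -0.04, Gsta4 and Gstt1 at log2 0.04 each, and the carbonyl reductase gene Cbr1 at log2 0.22.

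The loss of Sglt1 passed for 0 of the 35 genes in limma in Akita vehicle libraries, against 0.0259% of all genes, and 3 had an unadjusted p under 0.05, against 3.1% of all genes. Ephx1 had the smallest p. Its 6 Akita KO vehicle libraries ran from 7.86 TPM, with a median of 22.3, to 30.8 TPM, all below the lowest Akita WT vehicle library at 41.0 TPM. It was the only one of the 35 with every KO library lower, against 0.162% of all genes. The log2 difference was -1.51 (SE 0.33, interval -2.17 to -0.84, limma adjusted p = 0.0974). It passed with array weights and with a score of S1 and S2 markers in the fit. With a score of other cell types in the fit 0 of the 35 passed, as in the main fit, so this covariate could not show a call being lost. In this comparison 6 of 6 S1 and S2 markers (median log2 0.31) and 9 of 10 macrophage and dendritic markers (median log2 0.25) were above 0, and 3 of 3 tested thick limb markers were below 0 (median log2 -0.69), with 0 of these passing in limma. Also above 0 were 5 of 6 whole proximal tubule (0.10), 4 of 8 endothelial (0.01) and 2 of 7 stromal markers (-0.25). So were 3 of 6 collecting duct (-0.14), 2 of 3 distal tubule (0.20) and 2 of 3 podocyte markers (0.09), again with 0 passing. Of the 7 S3 markers, which include Slc5a1, 5 were above 0 (0.09) and 1 passed. Summed S1 and S2 markers ran from 46.7 to 538 TPM in Akita KO vehicle and from 42.0 to 284 TPM in Akita WT vehicle libraries. Tkt stood at log2 -0.54 (SE 0.16, limma adjusted p = 0.854). The median of the 35 was log2 -0.11 with 8 above 0, against 0.00 for all genes, and after rescaling without mitochondrial genes -0.03 against 0.08. With summed TPM in the fit the median was log2 0.03 with 23 above 0, against 0.01 for all genes. TPM summed to 1644200 ± 376930 in Akita KO vehicle libraries, with 37.5 ± 6.57% from the mitochondrial genome (SD, n = 6), against 1857900 ± 250660 and 42.2 ± 5.71% in Akita WT vehicle libraries. This comparison, those of both drugs in Akita WT mice and that of diabetes in WT mice on vehicle all use the same 6 Akita WT vehicle libraries.

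In nondiabetic vehicle libraries Ephx1 averaged 18.6 ± 7.50 TPM in KO and 17.9 ± 8.51 TPM in WT mice (SD, n = 6 each), and 0 of the 35 genes passed in limma, against 0.0195% of all genes, with 1 below an unadjusted p of 0.05, against 5.2% of all genes. On dapagliflozin the knockout passed for 0 of 35 genes in limma in nondiabetic and 0 in Akita mice, against 0.0324% and 0.0195% of all genes. There 1 and 2 genes had an unadjusted p under 0.05, against 6.94% and 3.3% of all genes. Averaged over diabetes and drug the knockout passed for 0 of 35 genes in limma, against 0.0519% of all genes, and 5 had an unadjusted p under 0.05, against 7.22% of all genes. Ephx1 stood at log2 -0.49 (SE 0.17, limma adjusted p = 0.502) and Tkt at log2 -0.23 (SE 0.08, limma adjusted p = 0.510).

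Dapagliflozin in Akita WT mice passed for 0 of the 35 genes in limma, against 0% of all genes, and 1 had an unadjusted p under 0.05, against 2.39% of all genes. Ephx1 had 56.6, 22.05, 16.9, 49.8 and 40.7 TPM in the 5 Akita WT dapagliflozin libraries, against 41.0 to 72.8 TPM in the 6 on vehicle. With dapagliflozin, 56.6 and 49.8 TPM lay in the vehicle range and 22.05 and 16.9 TPM in the nondiabetic WT vehicle range of 9.42 to 33.0 TPM. The value of 40.7 TPM lay between these ranges. The log2 difference from vehicle was -0.74 (interval -1.44 to -0.04, limma adjusted p = 1.000). Gsta3 had 35.1, 22.8, 15.3, 28.5 and 13.6 TPM in these libraries, a log2 difference from vehicle of -0.36 (interval -0.96 to 0.23). The median of the 35 was log2 -0.07 with 12 above 0, and 0.09 with 24 above 0 after rescaling without mitochondrial genes, when that of all genes was 0.15. In nondiabetic WT mice on dapagliflozin 0 of 35 passed in limma, against 0.00648% of all genes, and 2 had an unadjusted p under 0.05, against 7.03% of all genes: Txnrd1 at log2 0.37 (limma adjusted p = 0.609) and Gsta3 at log2 0.64 (limma adjusted p = 0.671). The median of the 35 there was log2 0.19 with 26 above 0, against 0.03 for all genes. It was -0.09 with 13 above 0 after rescaling without mitochondrial genes, against -0.22 for all genes. With summed TPM in the fit it was -0.11 with 12 above 0, against 0.02 for all genes. TPM summed to 1847200 ± 199910 in these libraries and 1422200 ± 323330 in nondiabetic WT vehicle libraries (SD, n = 6 each). Averaged over diabetes and genotype dapagliflozin passed for 0 of 35 genes in limma, against 0% of all genes, and 0 had an unadjusted p under 0.05, against 4.09% of all genes. In Akita KO and nondiabetic KO mice it passed for 0 of 35 in limma, against 0% of all genes in both, with 0 and 1 below an unadjusted p of 0.05, against 3.13% and 4.74% of all genes.

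Semaglutide in Akita WT mice also passed for 0 of the 35 genes in limma, against 0% of all genes, and 6 had an unadjusted p under 0.05, against 5.19% of all genes. Tkt and Txnrd1 were lower in every semaglutide library than in every vehicle library, against 0.383% of all genes. Tkt had 90.6, 72.6, 88.9, 51.4 and 59.8 TPM with semaglutide, against 95.4 to 130 TPM with vehicle (log2 -0.59, SE 0.17, limma adjusted p = 0.445). Txnrd1 had 90.7, 90.8, 107, 99.3 and 95.4 TPM with semaglutide, against 113 to 129 TPM with vehicle (log2 -0.32, SE 0.15, limma adjusted p = 0.942). Both lay within the range of nondiabetic WT vehicle libraries, apart from the lowest Tkt value of 51.4 TPM.

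Hmox1 had 5.12, 4.52, 9.37, 5.05 and 3.43 TPM with semaglutide, against 8.14 to 15.7 TPM with vehicle. A single semaglutide library reached the vehicle range (log2 -1.05, SE 0.33, limma adjusted p = 0.564). Ephx1 had 80.8, 15.7, 38.8, 12.03 and 38.0 TPM, so 1 semaglutide library exceeded all vehicle ones and the other 4 lay below them (log2 -0.92, SE 0.35, limma adjusted p = 0.798). In the same order Slc5a2 stood at 205, 16.1, 78.6, 15.4 and 20.4 TPM, and 205 TPM was the highest of the 52 libraries. Over the 35 genes the median was log2 -0.28 with 5 above 0, against -0.01 for all genes. Rescaling without mitochondrial genes moved the median of all genes to 0.21 and that of the 35 to -0.03, with 15 above 0. The libraries summed to 1513200 ± 449380 TPM with semaglutide (SD, n = 5) and 1857900 ± 250660 TPM with vehicle (SD, n = 6). With summed TPM in the fit 0 of the 35 passed in limma, as without it. The median of the 35 was then log2 -0.05 with 14 above 0, against 0.01 for all genes. Without such a covariate, markers above 0 were 6 of 6 for S1 and S2 (median log2 0.36), 8 of 10 for macrophage and dendritic cells (0.07), 6 of 8 for endothelium (0.23) and 3 of 3 tested for podocytes (0.44), with 0 passing in limma. So were 5 of 6 whole proximal tubule (0.12), 4 of 6 collecting duct (0.14), 4 of 7 stromal (0.15) and 2 of 3 distal tubule markers (0.43). For S3 3 of 7 (-0.10) and for the thick limb 1 of 3 (-0.03) were above 0, also with 0 passing. Summed S1 and S2 markers ran from 70.7 to 575 TPM with semaglutide and from 42.0 to 284 TPM with vehicle. With the S1 and S2 score or the score of other cell types in the fit 0 of the 35 passed. Because 0 had passed without these scores, the fits with them could not show a call being lost. Semaglutide against dapagliflozin in Akita WT mice passed for 0 of 35 genes in limma, against 0% of all genes, and 2 had an unadjusted p under 0.05, against 3.52% of all genes. Semaglutide-treated Akita WT against nondiabetic WT vehicle libraries passed for 0 of 35 genes in limma, against 0.00648% of all genes, and 3 had an unadjusted p under 0.05, against 4.86% of all genes. Gsta3 differed there by log2 0.86 (interval 0.27 to 1.46, limma adjusted p = 0.836).

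**Figure D4:**
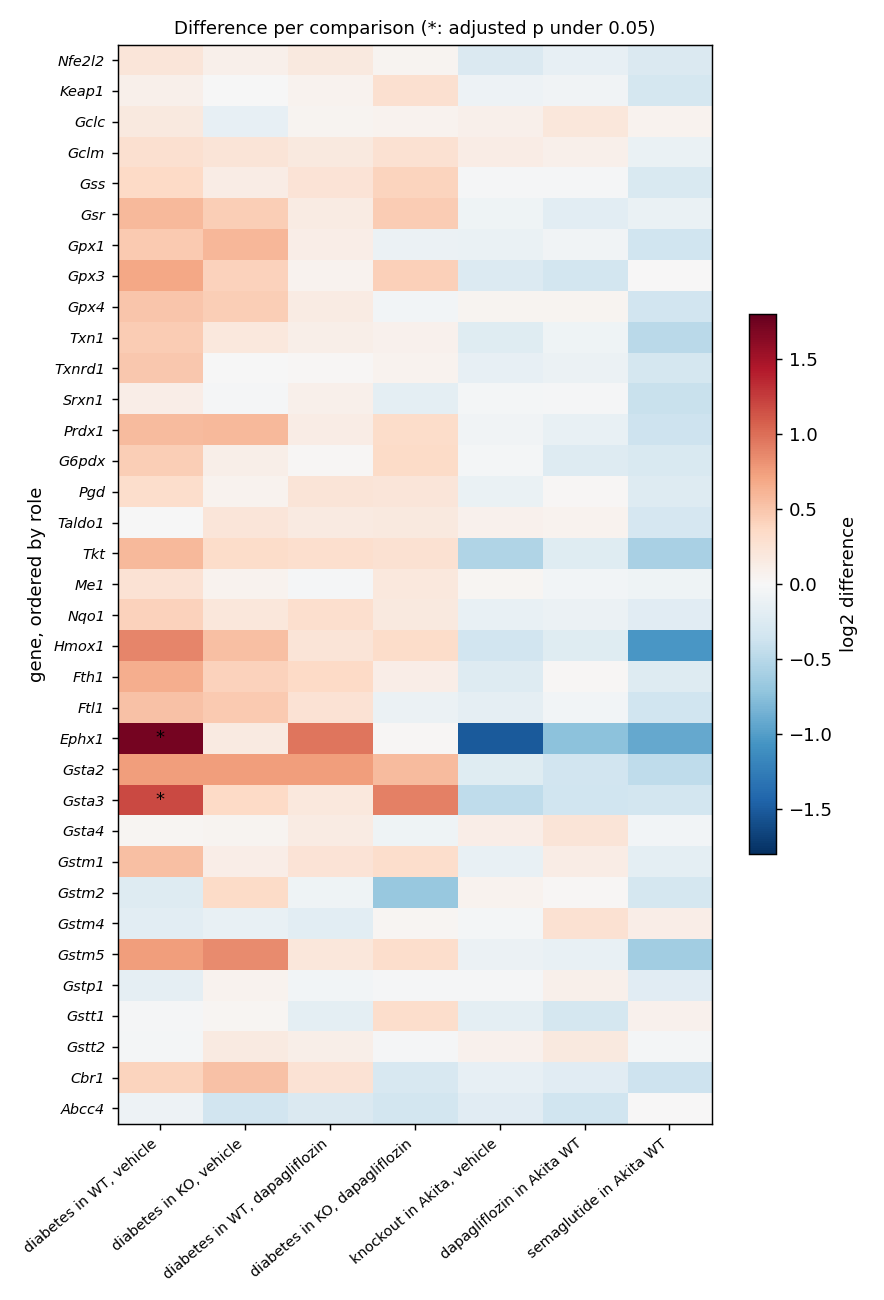
Log2 difference of each of the 35 genes (rows, by role) in 7 comparisons (columns), with red for higher and blue for lower in the group named by the comparison and a star for genes that passed. Stars stand on Ephx1 and Gsta3 for diabetes in WT vehicle libraries alone, and Ephx1 is bluest, at log2 -1.51, for the knockout in Akita vehicle libraries.

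Beyond these genes, 75 others of glutathione, thioredoxin, pentose phosphate and NRF2 biology were listed, of which 72 were in the table and 69 were tested. For diabetes in WT vehicle libraries 0 of the 69 passed in limma, against 0.389% of all genes, and 6 (8.7%) had an unadjusted p under 0.05, against 10.2% of all genes. For averaged diabetes 0 passed in limma, against 0.966% of all genes, and 14 (20.3%) had an unadjusted p under 0.05, against 13.4% of all genes. There 52 were above 0 (median log2 0.12, against 0.03 for all genes). In the other 19 comparisons 0 of the 69 passed in limma, against 0 to 0.0519% of all genes, and 1 to 8 (1.45 to 11.6%) had an unadjusted p under 0.05, against 2.39 to 7.22% of all genes. The share of 11.6% was that of the knockout in nondiabetic dapagliflozin libraries, against 6.94% of all genes, and of the knockout averaged, against 7.22%. Where the share was 1.45%, that of all genes was 2.39 to 5.2%.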

How the data were processed

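The deposited values are log10 TPM, per the table's title, that the authors computed from total RNA libraries (SMARTer stranded kit, 0.5 ng of RNA), on GRCm38 per the submitters' processing notes. Neither the aligner nor the annotation, scaling or read depth is given in the sources used here. Of 54 samples, Akita WT semaglutide replicate 1 and Akita WT dapagliflozin replicate 2 have no column, and the title says that outliers were removed. The log10 values were converted to TPM, with blank cells read as 0. Replicates were numbered in the order of the labels.

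Log2(TPM + 1) of 15424 genes (mean of 1 TPM or more) was fitted in limma 3.58.1 (R 4.3.3, file reading with the data.table package, version 1.17.8; eBayes with trend and robust settings) with 9 group means and 21 comparisons. A gene passed at a Benjamini-Hochberg adjusted p under 0.05 over all tested genes. The fit was tested on simulated data. Positions and shared sequence came from GENCODE vM21 (GRCm38), and promoters from RefSeq (GRCm38.p6). Genes named in full are those that passed and the next by adjusted p in averaged diabetes, to 12. Further genes with values were chosen after their values were seen, to show each role. The genes and lists were chosen with earlier results of these data known. Alternatives were another pseudocount (0.1), filter (none, or 5 TPM) or scaling, array weights, covariates, the compared groups alone and each library left out. A covariate of summed TPM and the omission of 3 libraries were added after seeing the data.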

Additional observations from a re-analysis of the deposited data

Results flagged for a closer look

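Of 108 pairs of the 12 named genes and 9 groups, 9 had a highest or lowest library that stood far from the rest of its group by Dixon's test. Chance gives about 5% of pairs. Tkt reached 101 TPM in nondiabetic KO dapagliflozin replicate 3, with the next library at 75.2 TPM, and 130 TPM in Akita WT vehicle replicate 4, with the next at 108 TPM. Hmox1 reached 19.9 TPM in Akita KO vehicle replicate 5 (next 11.1 TPM) and 9.37 TPM in Akita WT semaglutide replicate 4 (next 5.12 TPM). Gsta2 reached 25.5 TPM and Prdx1 268 TPM in nondiabetic WT vehicle replicates 4 and 5, with the next libraries at 10.0 and 122 TPM. G6pdx was lowest and far from the rest in 3 groups, at 17.6 TPM in Akita WT dapagliflozin replicate 4, 21.6 TPM in Akita KO vehicle replicate 1 and 17.7 TPM in Akita KO dapagliflozin replicate 4.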

How the results depend on the processing

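For diabetes in WT vehicle libraries the number of genes passing was 2. It was 1, Ephx1, with median-ratio scaling, array weights, other cell types or summed TPM as a covariate, only the groups compared, and without the 3 libraries lowest on the first principal component. Those are nondiabetic KO dapagliflozin replicate 3 and nondiabetic WT vehicle replicates 1 and 2. In this order their scores of other cell types were 4.04, 4.58 and 4.25, against a median of 3.59 over the 52 libraries. Slc5a2 stood at 191, 161 and 74.8 TPM in them, against a median of 18.2 TPM. The number of genes passing was 0 after rescaling to a common sum without mitochondrial genes. Leaving out single libraries gave 1 to 3. The cause was not tested. For averaged diabetes the count of 4 ranged from 3 to 4 over 12 alternatives and from 3 to 5 over single libraries left out. Tkt and Gsta3 passed in all of these. Gstm5 had an adjusted p of up to 0.362 in limma over the 12 and passed in 4. For the knockout in Akita vehicle libraries the count of 0 was 1, Ephx1, with array weights and with the S1 and S2 score as a covariate. In the other 18 comparisons it was 0 under every alternative run and whichever library was left out. No direction of a gene that passed was reversed. No paired analysis was possible because the labels number each library separately and groups share no number. Read depth is unknown, so counting noise of low genes such as Gsta2 and Hmox1 cannot be separated from other spread.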
